A study of Homo sapiens with 13 samples.

Results

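The genes described here are IGF1, which encodes insulin-like growth factor 1, the receptor genes IGF1R and IGF2R, and the 7 genes of the IGF binding protein series, IGFBP1 to IGFBP7. They were chosen by symbol, and all 10 were found among the 61546 features of both count tables. Bulk RNA-seq was measured in 13 libraries of GFP::SMAD4 RUES2 cells, which are human embryonic stem cells of the line RUES2 that carry GFP on SMAD4, the partner of BMP-activated SMAD proteins. The time series held 7 libraries of cells given 100 ng/mL BMP4 and 5 µM IWP2, an inhibitor of Wnt secretion, with 2 at 0 h and 1 each at 4, 12, 20, 28 and 42 h. The labels name this treatment for the 0 h libraries as well, which were read here as cells at the start of treatment. The dose response held 6 libraries at 5 h. Cells in 5 of them received the same BMP4 and IWP2 with LDN193189 (LDN), an inhibitor of BMP receptors, at 0, 10, 30, 100 or 300 nM, and the sixth was of untreated cells. The time course asks when the genes change as the cells leave pluripotency, and the dose response asks which of them follow the strength of BMP signaling.

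IGF1 and its relative IGF2 are secreted growth factors that act through IGF1R, a receptor tyrosine kinase at the cell surface. IGF2R binds IGF2 and carries it to lysosomes, so it removes ligand without kinase signaling. The IGF binding proteins hold IGFs outside the cell and set how much ligand reaches the receptor, while IGFBP7 binds IGFs only weakly and is often treated as a relative of the other six. Human pluripotent stem cells depend on insulin or IGF signaling for survival and self-renewal.

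Library totals were 37957385 to 71333471 counts in the time series and 15600931 to 33989998 in the dose response, and the untreated library was the smallest. A floor of 3 counts was worth 0.042 to 0.079 CPM (counts scaled to the library total) in the first set and 0.088 to 0.192 CPM in the second. Mitochondrial genes took 7.60% of the counts in 0 h replicate 1 and 7.89% in the untreated library, against 2.01 to 4.49% elsewhere. The pluripotency genes SOX2, NANOG, POU5F1 and PRDM14 were all at or above 1 CPM in every time-series library up to 28 h. At 42 h 3 of these 4 genes still were. The 4 genes summed to 1591 and 2275 CPM at 0 h and 1158 CPM at 42 h. In the 42 h library POU5F1 was at 1145 CPM, SOX2 at 11.6, NANOG at 1.08 and PRDM14 at 0.196 CPM. The sum of 5 amnion-associated genes (GATA3, TFAP2A, TFAP2C, ISL1, HAND1) was 10.8 and 11.2 CPM at 0 h and 3921 CPM at 42 h. HAND1 alone was at 2919 CPM at 42 h. The RNA of the time series was depleted of ribosomal RNA and that of the dose response was selected for polyA, so no value is compared between these sets.

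The members lie at several places in the genome, given here in GRCh38 from the GENCODE annotation. IGFBP1 (chr7:45888360-45893660, plus strand) and IGFBP3 (chr7:45912245-45921874, minus strand) are neighbours with a gap of 18584 bases, and IGFBP2 (chr2:216632828-216664436, plus strand) and IGFBP5 (chr2:216672105-216695549, minus strand) are neighbours with a gap of 7668 bases. The other binding protein genes are alone, IGFBP4 at chr17:40443450-40457725, IGFBP6 at chr12:53097436-53102345 and IGFBP7 at chr4:57030773-57110385. IGF1 spans chr12:102395874-102481744, IGF1R chr15:98648539-98964530 and IGF2R chr6:159969082-160113507. The promoters of IGFBP3 and IGFBP4 are shown because these genes moved in opposite directions in both experiments, as described further on. Each is the stretch of 250 bases before the gene's RefSeq start (GRCh38.p14), for IGFBP3 chr7:45921273-45921522 on the minus strand and for IGFBP4 chr17:40443200-40443449 on the plus strand, written 5′ to 3′. Capitals mark matches on either strand to the motif GGCGCC, the motif GGAGCC or the motif CAGAC, all known to be bound by SMAD proteins.
IGFBP3: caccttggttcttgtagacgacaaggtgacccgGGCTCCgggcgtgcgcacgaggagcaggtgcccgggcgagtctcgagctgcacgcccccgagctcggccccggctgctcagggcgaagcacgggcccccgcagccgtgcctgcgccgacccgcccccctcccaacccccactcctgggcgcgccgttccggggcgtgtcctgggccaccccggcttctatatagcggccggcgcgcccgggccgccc
IGFBP4: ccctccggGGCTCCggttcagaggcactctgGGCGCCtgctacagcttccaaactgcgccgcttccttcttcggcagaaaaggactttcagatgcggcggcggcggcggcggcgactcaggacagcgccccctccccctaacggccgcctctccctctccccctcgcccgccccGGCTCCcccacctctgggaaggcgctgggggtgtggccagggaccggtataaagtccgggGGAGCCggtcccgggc

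The IGFBP3 stretch held 1 match to GGAGCC and none to the other motifs, and the IGFBP4 stretch held 3 matches to GGAGCC and 1 to GGCGCC. Of all 35116 RefSeq promoter stretches of this length, 16.4% held GGCGCC, 30.6% held GGAGCC and 38.0% held CAGAC. Windows were given for 8 of the 10 members, with 11 starts in all. IGF1R also had 2 matches to GGAGCC and 1 to GGCGCC, and IGF2R and IGFBP5 had 2 matches to GGAGCC each. CAGAC was matched in the windows of IGFBP2 only, 3 times before its outermost start and once before its innermost start. These letters are a description of the windows, and binding was not measured. The IGFBP3 stretch lies inside the GENCODE span of its gene given above, while the IGFBP4 stretch ends just before its gene. The pair is therefore not placed alike against that annotation.

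At 0 h the cells held mostly IGFBP2 mRNA. On the length-corrected FPKM scale the mean level was 278 ± 104 (SD, n = 2) for IGFBP2, 72.9 ± 13.8 for IGFBP4 and 69.7 ± 16.2 for IGF1R. The latter pair did not differ beyond their spread. IGF2R followed at 30.3 ± 13.6 FPKM, IGFBP6 at 12.6 ± 5.38 and IGFBP3 at 6.60 ± 0.856. IGFBP5, at 0.775 ± 0.092 FPKM, and IGFBP7, at 0.590 ± 0.240, were lower and overlapped. IGFBP1 and IGF1 were at most 0.040 and 0.030 FPKM in either library. At 42 h the order had changed, with IGFBP3 at 927 FPKM, IGFBP2 at 443 and IGFBP7 at 76.5 ahead of IGF1R at 52.4. With 1 library at 42 h, these levels have no replicate error.

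**Figure D1:**
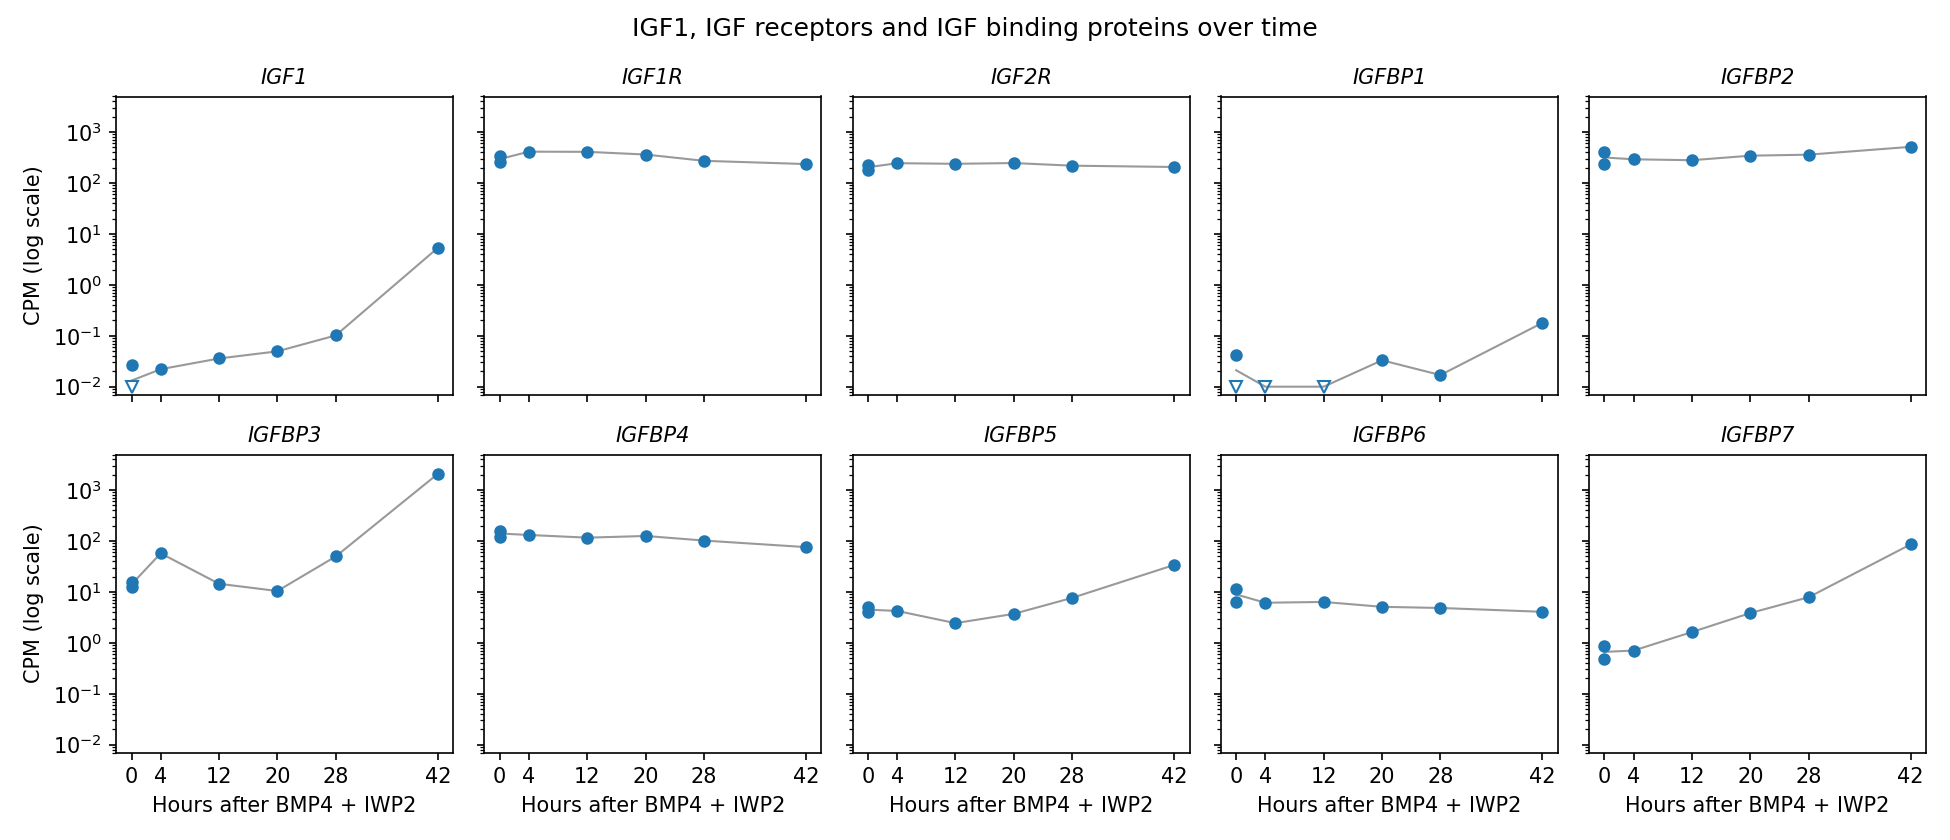
CPM on a log axis against hours after BMP4 and IWP2 for each gene. Points are single libraries (2 at 0 h), open triangles at the bottom stand for 0 counts, and the grey line joins the values, through the mean at 0 h. IGFBP3, IGFBP5 and IGFBP7 climb to 2085, 33.9 and 86.0 CPM at 42 h, while both receptors stay within 180 to 413 CPM.

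The ligand gene IGF1 was at or near the floor until 28 h. It had 1 and 0 counts in the 0 h libraries, then 1, 2, 3 and 6 counts at 4, 12, 20 and 28 h, and 326 counts, or 5.33 CPM, at 42 h. Only the 42 h library was clearly above the floor. The ratio of the 42 h library to the pooled 0 h libraries was 582, with a 95% counting interval of 104 to 23066 because it rests on 1 count at 0 h. Against the 28 h library the ratio was 52.5 (23.8 to 144). The mean of IGF1 over the time series was 0.795 CPM, below the minimum of 1 CPM for the test. With no minimum, the slope of IGF1 was 2.54 on the log2 scale per 10 h (edgeR quasi-likelihood adjusted p = 3.67e-06). Since only the 42 h library was clearly above the floor, this p-value describes the profile and is no independent support. Of the 8115 exonic bases of IGF1, 6693 are shared with HELLPAR, a long noncoding RNA on the other strand. HELLPAR had 34.0 and 18.4 CPM at 0 h and 9.58 CPM at 42 h, so the pair did not move together. The strand setting of the counting is not given in the sources used here, and reads of these genes cannot be told apart if strand was not used. In the dose response IGF1 had 1 count in the 10 nM library and 0 in the other 5.

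Neither receptor gene showed a trend over time that passed the test. IGF1R, the signaling receptor, was at 336 and 254 CPM at 0 h and at 413, 410, 362, 273 and 236 CPM at 4, 12, 20, 28 and 42 h. The 3 libraries from 4 to 20 h were above both 0 h libraries and the 42 h library was below them. Its slope on hours was −0.05 on the log2 scale per 10 h (SE 0.07, edgeR quasi-likelihood test with Benjamini-Hochberg adjusted p = 0.571). IGF2R, the scavenger of IGF2, was at 227 and 180 CPM at 0 h and between 206 and 247 CPM afterwards, with a slope of 0.05 (SE 0.04, edgeR adjusted p = 0.361). The 42 h value of IGF2R lay between the 0 h libraries. The 42 h minus 0 h difference of IGF1R was −0.32 on log2(CPM + 0.5) and ranged from −0.51 to 0.02 over 6 alternatives, with a change of sign in 2 of them. That of IGF2R was 0.02 and ranged from −0.54 to 0.36, also with 2 changes of sign.

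The binding protein genes parted. Of the 8 members that averaged 1 CPM or more in the time series, 4 rose with time (IGFBP2, IGFBP3, IGFBP5, IGFBP7) and 1 fell (IGFBP4). Of all 15976 genes tested, 19.2% rose and 17.5% fell. IGFBP7 reached 1 CPM on average only through its later libraries, so it had to differ in order to be tested, and its place in this count is a description. The error in this fit is the scatter of 7 libraries about a straight line, since only 0 h had more than 1 library. Nothing states that the 0 h libraries came from separate cultures, so the p-values measure only the spread between these samples. In bulk RNA, a change in the number of cells that express a gene and a change in RNA per cell cannot be told apart.

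IGFBP3, the main carrier of IGFs in blood, had the largest 42 h minus 0 h difference of the members on log2(CPM + 0.5). With 0.01 CPM added in place of 0.5, IGF1 was ahead of it at 7.85. It was at 12.5 and 15.7 CPM at 0 h, 57.3 CPM at 4 h, 14.5 and 10.4 CPM at 12 and 20 h, 49.7 CPM at 28 h and 2085 CPM at 42 h. There were thus 2 rises above the 0 h libraries, one at 4 h that was gone by 12 h and a later one from 28 h onwards. At 4 h the ratio to the pooled 0 h libraries was 3.93 (95% counting interval 3.70 to 4.19), a log2 difference of 1.99 on log2(CPM + 0.5). IGFBP3 was the only member whose difference at 4 h was above 1 in size. Over all genes tested, 4.41% were above 1 and 0.638% below −1 at 4 h, and IGFBP3 ranked 145 of 13658 genes averaging 2.5 CPM or more.

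At 42 h the IGFBP3 ratio to 0 h was 143 (136 to 150), against a ratio of 41.9 (40.4 to 43.5) over the 28 h library. This log2 difference of 7.16 ranked 23 of the 13658 genes, and the 127568 counts of IGFBP3 made it rank 24 in abundance, with 0.208% of all counts in that library. The slope was 1.52 on the log2 scale per 10 h (SE 0.30, edgeR quasi-likelihood adjusted p = 0.00620). Without the 42 h library the slope was 0.26 and the edgeR adjusted p = 0.574, so the call rests on that library. It passed in 12 of 14 alternatives, with adjusted p from 1.06e-80 to 0.574. The lowest came from the fit with each time as a group, whose error rests on the pair of 0 h libraries. A parabola in hours, chosen after the data were seen, gave an edgeR adjusted p = 0.000214 for IGFBP3.

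IGFBP7, a secreted protein with weak IGF binding, rose at every time from 12 h on. It was at 0.474 and 0.855 CPM at 0 h, 0.706 CPM at 4 h, then 1.63, 3.85 and 7.87 CPM at 12, 20 and 28 h and 86.0 CPM at 42 h. The 4 h library lay between those of 0 h, and each later library was above all earlier ones. Its slope was 1.70 per 10 h (SE 0.11, edgeR quasi-likelihood adjusted p = 4.74e-05). Without the 42 h library the slope was 1.33 with an edgeR adjusted p = 0.000269, within a range of 2.01e-86 to 0.0217 over 14 alternatives. The 42 h ratio was 119 (95.3 to 151) to 0 h and 10.9 (9.94 to 12.0) to 28 h. Since IGFBP7 entered the test through the libraries where it is high, these p-values describe its profile and are no independent support. It shares 260 of its 1930 exonic bases with POLR2B on the other strand, a gene at 104 to 124 CPM at 0 h and 93.3 CPM at 42 h.

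IGFBP5, an extracellular matrix-bound binding protein and neighbour of IGFBP2, dipped at 12 h and was highest at 42 h. The libraries gave 5.01 and 3.97 CPM at 0 h, then 4.24, 2.44, 3.71, 7.65 and 33.9 CPM from 4 to 42 h. Only the 28 h and 42 h libraries were above both 0 h libraries. The slope was 0.70 (SE 0.15, edgeR quasi-likelihood adjusted p = 0.00785), and without the 42 h library it was 0.22 with an edgeR adjusted p = 0.357. IGFBP5 passed in 12 of 14 alternatives, with adjusted p from 5.24e-23 to 0.357. The ratio of 42 h to 0 h was 7.84 (7.09 to 8.68).

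IGFBP2, the most abundant binding protein mRNA of these cells at 0 h, rose by a small amount. It was at 233 and 402 CPM at 0 h, 292, 280, 344 and 360 CPM from 4 to 28 h, and 513 CPM at 42 h. All libraries from 4 to 28 h lay between the 0 h libraries, and 42 h alone was above both. The slope was 0.21 (SE 0.07, edgeR quasi-likelihood adjusted p = 0.0403). Without the 42 h library the slope was 0.10 and the edgeR adjusted p = 0.482, and IGFBP2 passed in 6 of 14 alternatives, with adjusted p from 0.00193 to 0.482. The library with 233 CPM was 0 h replicate 1, which also had the larger mitochondrial share of the pair. The part of that share in the result was not tested.

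IGFBP4, which holds IGFs until the protease PAPPA cuts it, was the only member whose fall over time passed the test. It was at 122 and 159 CPM at 0 h, 131, 116, 126 and 102 CPM from 4 to 28 h, and 75.9 CPM at 42 h. The 12, 28 and 42 h libraries were below both 0 h libraries, and the 42 h library was the lowest. The slope was −0.13 (SE 0.04, edgeR quasi-likelihood adjusted p = 0.0480), and it passed in 6 of 14 alternatives, with adjusted p from 0.0140 to 0.312. The call was lost without the 4, 12, 28 or 42 h library or 0 h replicate 2, and the edgeR adjusted p = 0.312 without 42 h.

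IGFBP6, which prefers IGF2 as its ligand, gave 6.22 and 11.6 CPM at 0 h and 6.13, 6.36, 5.10, 4.84 and 4.07 CPM from 4 to 42 h. The last 3 libraries were below both 0 h libraries, but the slope of −0.20 (SE 0.08) did not pass the test (edgeR quasi-likelihood adjusted p = 0.0942). IGFBP1, a binding protein best known from liver and decidua, had 0 and 3 counts at 0 h and 0, 0, 2, 1 and 11 counts from 4 to 42 h. Its highest level was 0.180 CPM, so it was barely above the floor at any time and was not tested. Its neighbour IGFBP3 was at 2085 CPM in the same 42 h library.

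**Figure D2:**
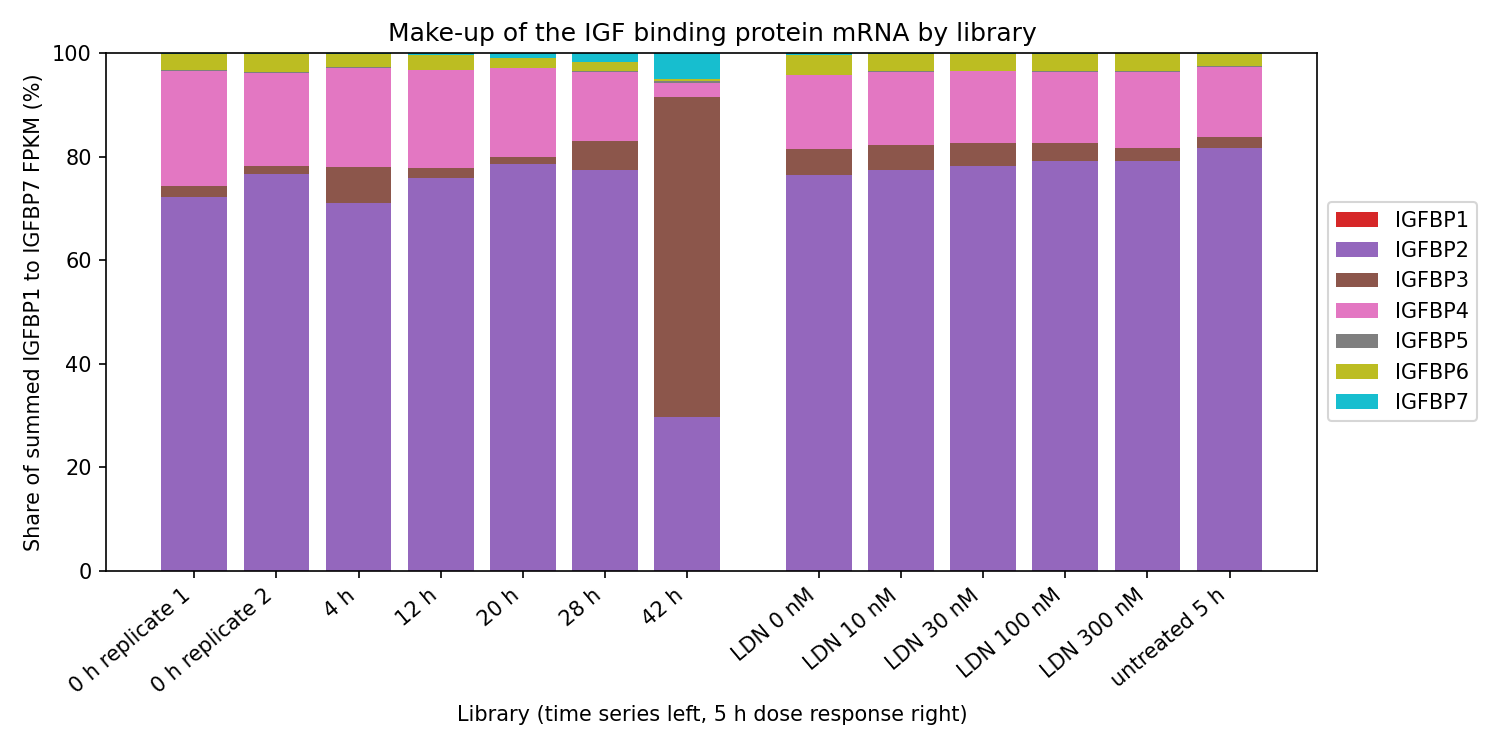
Share of the summed FPKM of IGFBP1 to IGFBP7 taken by each gene, as stacked bars that add to 100%, for the 7 time-series libraries and the 6 dose-response libraries. IGFBP2 takes 71.0 to 78.6% until 28 h and 29.6% at 42 h, where IGFBP3 takes 61.9%.

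The make-up of the binding protein mRNA therefore differed at 42 h. The FPKM of the 7 genes summed to 284 and 459 at 0 h and to 1497 at 42 h. IGFBP2 made up 71.0 to 78.6% of this sum in the libraries up to 28 h and 29.6% at 42 h. IGFBP3 went from 1.21 to 7.05% up to 28 h to 61.9% at 42 h, and IGFBP7 from at most 1.76% to 5.11%. IGFBP4 made up 22.2 and 18.0% at 0 h and 2.61% at 42 h. In the dose response IGFBP2 held 76.3 to 81.6% in all 6 libraries.

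Between 28 and 42 h the log2 difference was above 1 for IGFBP3 (5.38), IGFBP7 (3.37) and IGFBP5 (2.08) among the 8 members tested, and below −1 for none. Over all genes tested, 2.75% were above 1 and 8.41% below −1 in that interval. The 5 amnion-associated genes summed to 1991 CPM at 28 h and 3921 CPM at 42 h, and their part in the changes of the members was not tested. Most of that gain was HAND1, which went from 1036 to 2919 CPM. ISL1 went from 74.1 to 137 CPM, GATA3 from 296 to 322, TFAP2A from 348 to 367, and TFAP2C fell from 237 to 176. Markers of fibroblasts and mesenchyme, cells in which IGFBP3, IGFBP5 and IGFBP7 are abundant, were also read. COL1A1, COL3A1, LUM and DCN summed to 181 and 154 CPM at 0 h and to 84.2 CPM at 42 h, nearly all of it COL1A1. At 42 h DCN had 0 counts, COL3A1 was at 0.278 CPM and LUM was at 0.882 CPM, after at most 1 count in any earlier library for LUM.

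**Figure D3:**
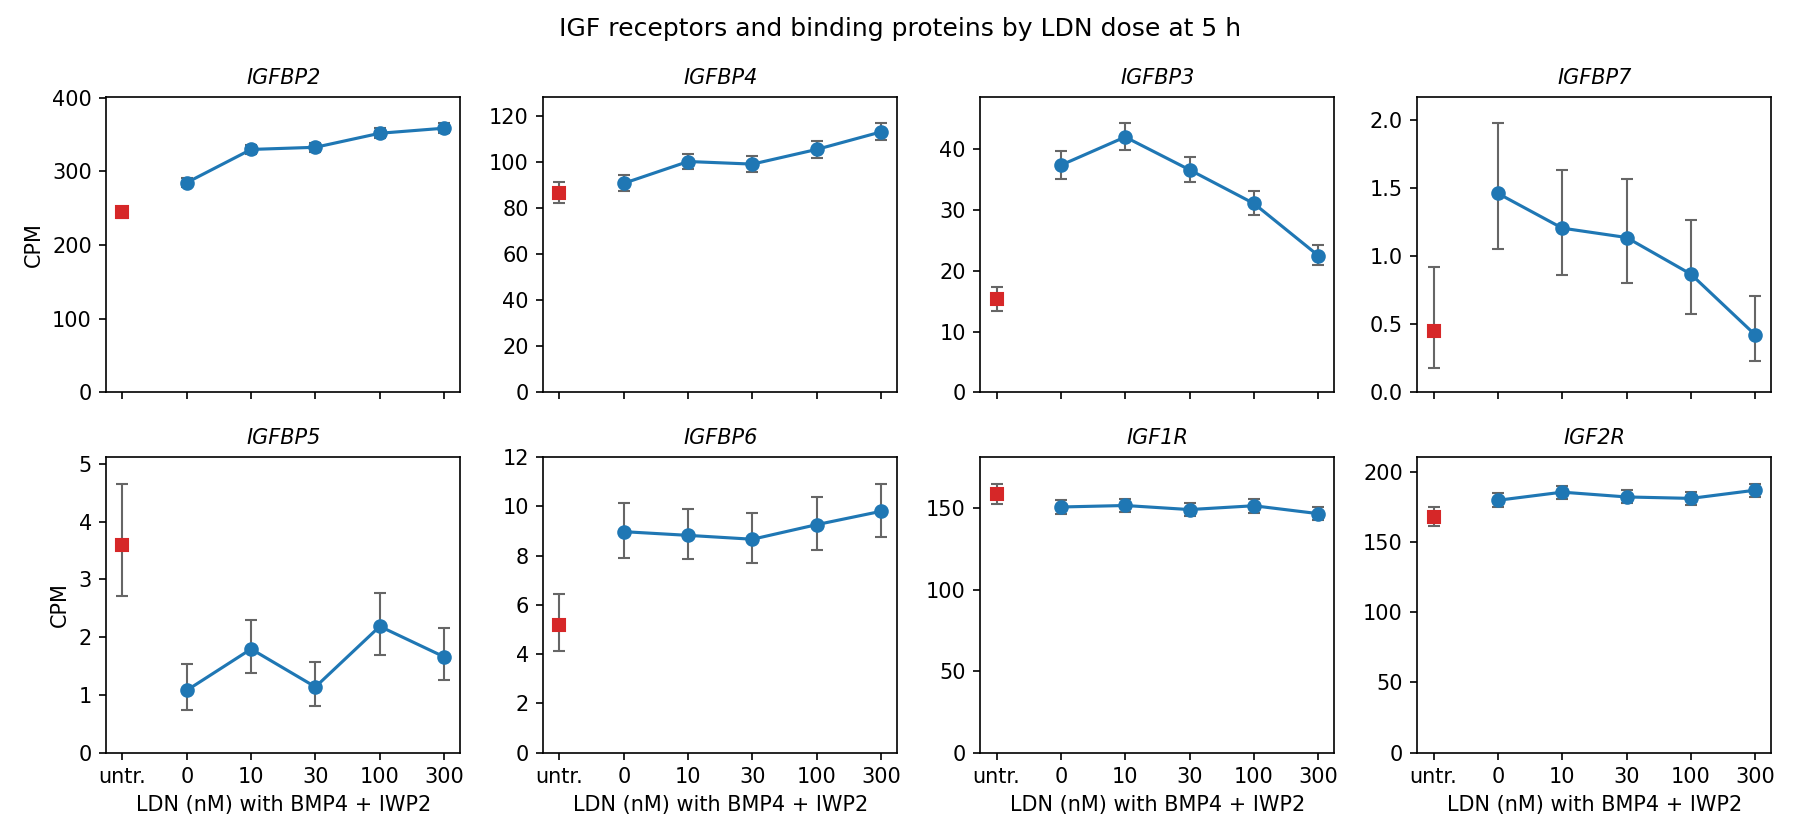
CPM at 5 h against LDN dose for 8 members, with BMP4 and IWP2 (circles joined by a line) and in untreated cells (red squares), 1 library each. Bars are 95% counting intervals. IGFBP3 goes from 37.4 to 22.5 CPM between 0 and 300 nM while IGFBP2 goes from 285 to 359 CPM and IGFBP4 from 90.8 to 113 CPM.

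At 5 h, 3 members had a trend with LDN dose that passed the test. Of the 7 members that averaged 1 CPM or more in the dose response, 2 rose with LDN dose (IGFBP2 and IGFBP4), 1 fell (IGFBP3) and 4 did not pass the test. Of all 14877 genes tested, 10.4% rose and 10.9% fell. Slopes are per step from one LDN dose to the next, and since no dose had a second library the scatter of the 5 libraries about the line is the error. The summed level of 6 BMP target genes (ID1 to ID4, SMAD6, SMAD7) was 1996 CPM without LDN and 652 CPM at 300 nM, beside 165 CPM in the untreated library. The untreated library lacked IWP2 as well as BMP4, so their effects cannot be told apart in any comparison with it.

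IGFBP3 gave 37.4, 42.0, 36.6, 31.1 and 22.5 CPM in order of rising LDN dose, and 15.3 CPM in untreated cells. The highest value was at 10 nM, the values declined from there, and every library with BMP4 was above the untreated one. The slope was −0.18 per step (SE 0.04, edgeR quasi-likelihood adjusted p = 0.00430). Without the 300 nM library it was −0.10 with an edgeR adjusted p = 0.110, the only one of 12 alternatives that did not pass (adjusted p from 1.80e-06 to 0.110). The ratio of BMP4 without LDN to untreated was 2.44 (95% counting interval 2.12 to 2.82), and that of 300 nM LDN to untreated was 1.47 (1.27 to 1.71).

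IGFBP2 was at 285, 330, 333, 352 and 359 CPM from 0 to 300 nM and at 244 CPM in untreated cells. It was higher at each further dose, and on CPM the untreated library, which had neither BMP4 nor IWP2, was the lowest of all. On the authors' FPKM untreated cells were at 268, above the library without LDN at 248 and below that with 300 nM at 315. The slope was 0.08 per step (SE 0.01, edgeR quasi-likelihood adjusted p = 0.00136). IGFBP4 gave 90.8, 100.3, 99.1, 106 and 113 CPM over the same doses and 86.7 CPM without treatment. The slope was 0.07 (SE 0.01, edgeR quasi-likelihood adjusted p = 0.00106). On CPM IGFBP4 too was lowest without any treatment. The 95% counting intervals of that library (82.2 to 91.5 CPM) and of the one without LDN (87.4 to 94.4 CPM) overlapped. The log2 difference of BMP4 without LDN to untreated was 0.07 for IGFBP4. It ranged from −0.05 to 0.07 over 4 alternatives, with 2 changes of sign. Each passed in 11 of 12 alternatives, with adjusted p from 7.64e-07 to 0.982 for IGFBP2 and from 2.02e-05 to 0.564 for IGFBP4. When the untreated library was added as a step after 300 nM, the slope of IGFBP2 was −0.00 (edgeR adjusted p = 0.982) and that of IGFBP4 was 0.02 (edgeR adjusted p = 0.564). At 300 nM LDN the ratio of IGFBP2 to untreated cells was 1.47 (1.42 to 1.52), and the interval for IGFBP4 was 1.23 to 1.39. The untreated library also had the highest mitochondrial share and the lowest depth of the 6, whose part in these ratios was not tested.

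IGFBP7 had 42, 41, 37, 27 and 14 counts from 0 to 300 nM and 7 counts in untreated cells, or 1.46, 1.21, 1.14, 0.868, 0.422 and 0.449 CPM. The level was lower at each further dose, and at 300 nM it was near that of untreated cells, with a ratio of 0.941 (0.356 to 2.76). Its mean of 0.924 CPM was below the minimum for the test. With no minimum, the slope was −0.36 per step (SE 0.11, edgeR quasi-likelihood adjusted p = 0.0171). BMP4 without LDN stood to untreated cells in a ratio of 3.26 (1.45 to 8.59), a log2 difference of 1.05.

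The other members showed no trend with LDN that passed the test. IGFBP5 had 31, 61, 37, 68 and 55 counts, or 1.08 to 2.19 CPM, and 56 counts or 3.59 CPM in untreated cells. On CPM, untreated cells were thus above every library with BMP4. On the authors' FPKM they were at 0.60, below the 10, 100 and 300 nM libraries at 0.75, 0.89 and 0.61. On counts the ratio of BMP4 without LDN to untreated had an interval of 0.187 to 0.474, while the slope was 0.14 (SE 0.10, edgeR quasi-likelihood adjusted p = 0.331). IGFBP6 was at 8.67 to 9.80 CPM with BMP4 and at 5.19 CPM untreated, a ratio of 1.73 (1.34 to 2.25) without LDN, and its slope was 0.04 (SE 0.03, edgeR adjusted p = 0.437). IGF1R spanned 147 to 152 CPM over the 5 doses and IGF2R 180 to 187 CPM, and their untreated values were 159 and 168 CPM. The slopes of both receptors were −0.00 (SE 0.01) for IGF1R and 0.01 (SE 0.01) for IGF2R (edgeR adjusted p = 0.790 for IGF1R and 0.502 for IGF2R). IGFBP1 had 2, 0, 0, 0 and 2 counts and 0 in untreated cells.

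Between BMP4 without LDN and untreated cells, IGFBP3 (1.26) and IGFBP7 (1.05), the latter below the minimum for the test, stood above a log2 difference of 1, and IGFBP5 (−1.37) was below −1. Over all genes tested, 4.79% were above 1 and 1.63% below −1. With TMM or DESeq2 scaling or on FPKM only IGFBP3 was above 1, and on FPKM no member was below −1.

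**Figure D4:**
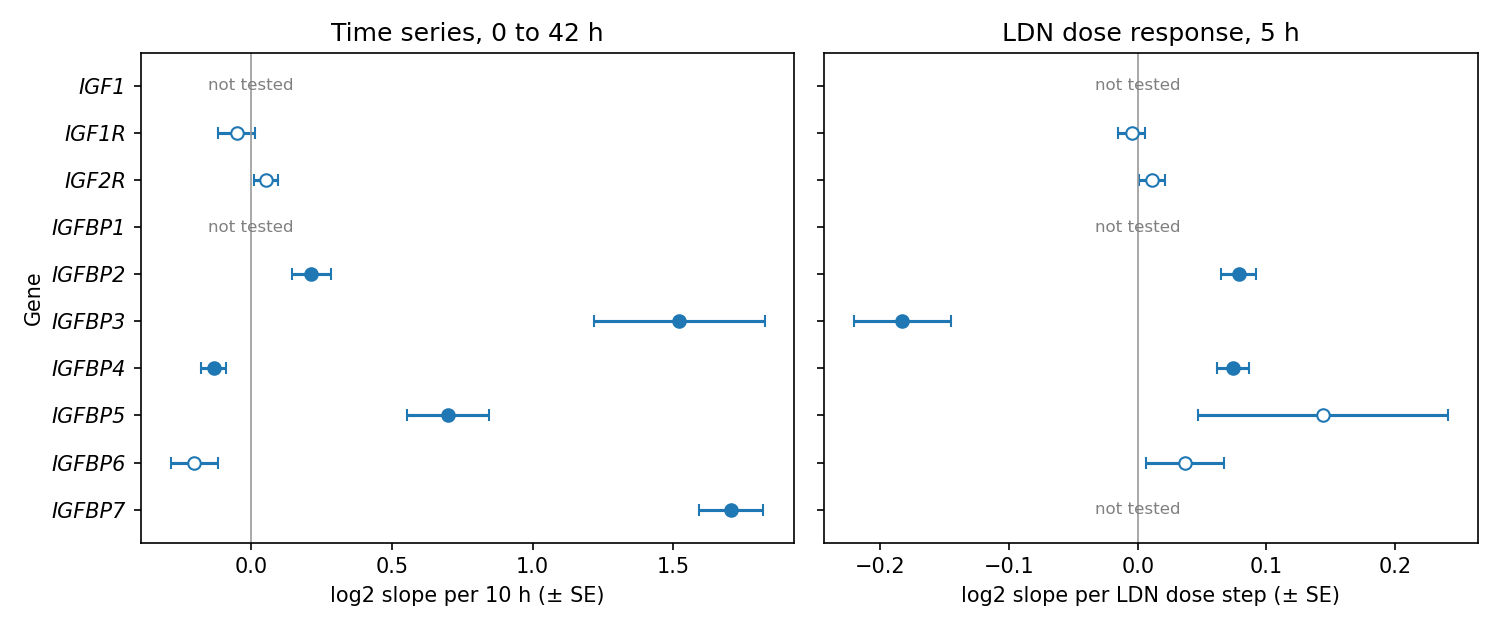
Fitted log2 slopes with their standard errors, per 10 h in the time series (left) and per LDN dose step at 5 h (right). Filled points passed an adjusted p of 0.05 in edgeR's quasi-likelihood test and open points did not. IGFBP3 is at 1.52 over time and at −0.18 over dose, and IGFBP4 at −0.13 and 0.07.

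Set side by side, IGFBP3 had a positive slope over time and a negative slope over LDN dose, IGFBP4 the opposite, and IGFBP2 was positive in both. The 2 experiments share no library. IGFBP3 was thus above control in the 4 h library of the time series and in the 5 h library with BMP4 and no LDN, each against its own controls, by ratios of 3.93 and 2.44.

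The wider pathway was read from a list of 46 genes for other ligands and receptors, proteases of the binding proteins, adaptors and downstream kinases. In the time series 40 of them were tested, of which 15 rose, 3 fell and 22 did not pass, with a median slope of 0.09 beside −0.00 for all genes tested, of which 19.2% rose and 17.5% fell. In the dose response 38 were tested, of which 7 rose, 6 fell and 25 did not pass, with a median slope of −0.01 beside −0.00 for all genes tested, of which 10.4% rose and 10.9% fell. Of the 16 genes of the PI3K, AKT and mTOR branch, which carries the signal of IGF1R, 8 rose over time and none fell, and over dose 1 rose and 1 fell, to be read against the same shares of all genes.

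The second ligand gene, IGF2, was at 3.06 and 2.10 CPM at 0 h, 5.21, 3.53, 3.28 and 6.82 CPM from 4 to 28 h and 37.7 CPM at 42 h. All later libraries were above those of 0 h, and the 42 h library far above the rest. Its slope was 0.85 (SE 0.14, edgeR quasi-likelihood adjusted p = 0.00257). From 0 to 300 nM LDN, IGF2 had 81, 102, 66, 62 and 56 counts, with a slope of −0.21 (SE 0.06, edgeR adjusted p = 0.0408). It went from 2.82 to 1.69 CPM, and the untreated library was at 2.05 CPM. The annotation has genes that overlap IGF2, such as INS-IGF2 with 1460 shared exonic bases, listed at 0 in all libraries, so the split of reads among them is uncertain. The insulin gene INS had 1 count in all 13 libraries together. The insulin receptor gene INSR, which can pair with IGF1R, fell from 88.3 and 75.1 CPM at 0 h to 41.0 CPM at 42 h (slope −0.20, edgeR adjusted p = 0.00587) and rose with LDN from 37.6 to 47.6 CPM (slope 0.08, edgeR adjusted p = 0.00251).

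Among genes that act on the binding proteins, PAPPA, the protease of IGFBP4 and IGFBP5, was at 2.37 and 1.78 CPM at 0 h, 8.21 CPM at 4 h and 1.62 CPM at 42 h. The 4 h library was the highest of the series, and neither its time slope (−0.17, edgeR quasi-likelihood adjusted p = 0.573) nor its dose slope (−0.13, edgeR adjusted p = 0.0772) passed. STC2, an inhibitor of PAPPA, rose with LDN from 64.4 to 120 CPM (slope 0.21, edgeR adjusted p = 3.97e-05) and had no time slope that passed (−0.06, edgeR adjusted p = 0.293). Its relative STC1 rose with LDN from 6.51 to 8.99 CPM, with 27.5 CPM in untreated cells (slope 0.12, edgeR adjusted p = 0.0395). HTRA1, a secreted protease that can cut IGF binding proteins, fell with LDN from 28.2 to 17.1 CPM (slope −0.20, edgeR adjusted p = 0.000166). Over dose the slopes of STC1 and STC2 were thus positive and those of PAPPA and HTRA1 negative, and that of PAPPA did not pass. KAZALD1, a relative with an IGF binding domain, rose over time from 0.395 and 0.505 to 4.58 CPM (slope 0.84, edgeR adjusted p = 0.000119). It averaged 1 CPM or more only through libraries after 0 h, so it had to differ in order to be tested. Its p-value describes its profile and is no independent support.

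CCN1, a matrix protein with such a domain, rose from 42.7 and 50.7 CPM at 0 h to 215 CPM at 20 h, with 116 CPM at 42 h (slope 0.57, edgeR quasi-likelihood adjusted p = 0.0249). With LDN it fell from 93.8 to 63.1 CPM (slope −0.13, edgeR adjusted p = 3.34e-05). Of the adaptors below the receptor, IRS1 rose from 98.3 and 93.6 CPM to 359 CPM at 42 h (slope 0.48, edgeR adjusted p = 0.000330), and over dose it fell from 68.6 to 61.5 CPM (slope −0.04, edgeR adjusted p = 0.0487). IRS4 fell from 48.0 and 34.4 CPM to 5.47 CPM (slope −0.56, edgeR adjusted p = 0.00261). The 2 insulin receptor substrates thus moved in opposite directions over time. GRB10, an adaptor that restrains the receptors, fell from 109.6 and 113 CPM to 43.0 CPM (slope −0.30, edgeR adjusted p = 0.00232). Over dose the kinase subunit genes differed in direction, as PIK3R1 rose (slope 0.10, edgeR adjusted p = 0.0126) and PIK3CA fell (slope −0.09, edgeR adjusted p = 0.00801). FOXO3, a factor that AKT keeps out of the nucleus, rose with LDN from 22.8 to 34.9 CPM (slope 0.16, edgeR adjusted p = 6.07e-05).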

How the data were processed

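Bulk RNA-seq of 13 libraries was analysed, 7 of a time series and 6 of a dose response, grouped by their GEO labels. According to the submitters' processing notes and methods, the authors ran Cutadapt for trimming, STAR 2.7.8a for mapping to GRCh38 and RSEM 1.3.3 for counting. The release of the annotation and the strand setting are not given in the sources used here. The deposited tables give expected counts from RSEM, in whole numbers and unscaled, and the FPKM values that the authors normalized for length and depth. The count tables were used for the tests and the FPKM tables for levels between genes.

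CPM was computed on library totals. Trends were fitted over all genes averaging 1 CPM or more using edgeR 4.0.16 (quasi-likelihood test, TMM factors, Benjamini-Hochberg adjustment, threshold 0.05) under R 4.3.3, against hours in the 7 time-series libraries and against LDN dose step (0 to 4) in the 5 libraries with BMP4. Differences between single conditions are on log2(CPM + 0.5) with no test, and ratios pool the counts of a group and carry exact 95% intervals that cover counting error only. The members, gene lists and rules were chosen with earlier results of these data known. Named pathway genes are the 4 with the largest slope past the threshold in each direction and experiment, with IGF2, INSR, PAPPA, STC2 and IRS1 always. INS, HELLPAR and POLR2B are named for their relation to members. In simulated data on the 15976 genes of the time series, 94 of 100 genes with a slope of 0.5 per 10 h and 100 of 100 with a slope of 1 were found, with 5 false calls. On the 14877 genes of the dose response these were 91 of 100 at 0.3 per step and 100 of 100 at 0.6, with 7 false calls. The simulated profiles were straight lines on the log2 scale, so they do not cover curved profiles such as that of IGFBP3 over time. Changes smaller than these slopes, such as those of IGFBP2 and IGFBP4, were not simulated. Alternatives covered the scaling, the test (DESeq2 1.42.0), the minimum level, the form of the predictor, the value added before the log and each library left out. Values and plots were made in Python 3.11.15 with pandas 2.3.3, scipy 1.17.1 and matplotlib 3.10.9. Promoter windows are from RefSeq.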

Additional observations from a re-analysis of the deposited data

How the results depend on the processing

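Each condition except 0 h rests on 1 library, so leaving one out removes a time or a dose, and the shape of the curve between sampled times is open to that extent. No paired analysis was possible because only 0 h has more than 1 library and no other condition has a replicate number of its own in the labels. Counts of members called over time were 4 rising and 1 falling. With log2(hours + 1) as the predictor they were 1 and 0, with all genes of at least 1 count 5 and 0, and on library totals 3 and 2. Leaving out single libraries gave 1 to 4 rising, with 1 (IGFBP7) without the 42 h library, and 0 to 1 falling, with 0 without 0 h replicate 2 or the 4, 12, 28 or 42 h library. With each time as a group, the member that fell was IGFBP6 in place of IGFBP4. Counts over dose were 2 rising and 1 falling. With the untreated library as a further step no member rose, with all genes of at least 1 count 2 fell (IGFBP3 and IGFBP7), and leaving out single libraries gave 2 rising throughout and 0 to 1 falling, with 0 without the 300 nM library. At 4 h, 1 member (IGFBP1, with 0 counts) was below −1 in place of 0 when 0.01 CPM was added. Against untreated cells, 2 members were above 1, but 1 with TMM, DESeq2 size factors or FPKM and 3 with 0.01 CPM added (IGFBP1, with 2 counts against 0, at 2.99), and 1 was below −1, but 0 on FPKM. The cause was not tested beyond the construction of each alternative. Slopes that changed sign were all small and did not pass the test: over time IGF1R at 0.0104 with log2(hours + 1) and from −0.108 to 0.00466 with single libraries left out (0.00466 without 42 h), and IGF2R at −0.00409 on library totals. Over dose these were IGF1R from −0.0113 to 0.00457 with single libraries left out (0.00457 without 300 nM), and, with the untreated library added, IGF1R at 0.0197, IGF2R at −0.000354, IGFBP2 at −0.00176 and IGFBP6 at −0.0536. IGFBP2 had passed the test in the fit without the untreated library.

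Over all genes, 3072 rose and 2793 fell with time. These counts were 2121 and 4069 on library totals, which moved the median gene by −0.23 between 0 and 42 h, against 0.07 with TMM, and 2047 and 1366 with log2(hours + 1), and 1935 and 1408 without 42 h. A parabola in hours, added after the data were seen, called 7625 genes in either direction and 4 members. With dose, 1550 rose and 1616 fell, but 1001 and 1151 with the untreated library added, 884 and 1113 without 0 nM, and 982 and 1094 without 300 nM. IGF1 and IGFBP1 in both experiments, and IGFBP7 over dose, were below the minimum of 1 CPM and tested only without it. Over time this gave IGF1 a slope of 2.54 (edgeR adjusted p = 3.67e-06), which makes it the fifth member rising there, and IGFBP1 a slope of 0.87 (edgeR adjusted p = 0.0849). IGF1 had at most 6 counts in any library before 42 h, so its place in this count is a description. In that setting 3791 of all 39033 genes rose over time and 3049 fell. Over dose 1757 of 31851 genes rose and 1674 fell.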

Other observations

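The genes whose profile was most like that of IGFBP3, IGFBP7 and IGFBP5 are given here. These are the 3 members with the largest 42 h difference among those averaging 2.5 CPM or more in the time series (IGF1, with a larger difference than IGFBP5, averaged less). The nearest genes were taken from 10378 genes that averaged 10 CPM or more. Likeness is Pearson's r of log2(CPM + 0.5) over 6 time points, which share the libraries and are few, so it is a description only. For IGFBP3 the nearest were VPS35 (r = 0.989), JADE3 (0.984) and CPVL (0.983), and their own 42 h differences of 0.81, 1.48 and 0.69 were far smaller than the 7.16 of IGFBP3. For IGFBP7 they were ZFYVE21 (0.998), DACT1 (0.998) and CLTB (0.998), with differences of 1.04, 4.07 and 1.43 beside 6.21 for IGFBP7. For IGFBP5 they were RTF2 (0.998), VANGL1 (0.996) and H19 (0.994), with differences of 0.42, 0.62 and 4.15 beside 2.79. H19, an imprinted noncoding RNA, was at 5.43 CPM at 0 h and 105 CPM at 42 h.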
